A study of Mus musculus with 8 samples.

Results

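Fatty acid uptake and lipid droplet genes were examined for m6A in mouse liver. The set held 10 genes, *Cd36*, *Gpam*, *Dgat1*, *Dgat2*, *Plin2*, *Plin5*, *Cideb*, *Cidec*, *Pnpla2* and *Lipc*, and every peak under these gene names was taken from the lists of both genotypes and from the list of differential peaks. Of the 10 genes, 7 had a peak, against 45.2% of the protein-coding genes of RefSeq. They held 10 sites of 21646 in all, a site being the overlapping peaks of a gene on the same strand in either genotype. No peak of *Gpam*, *Plin2* or *Cidec* stood in any list.

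m6ARIP-seq sequences the mRNA fragments that an antibody to N6-methyladenosine (m6A) pulls down (IP) beside fragments that were not pulled down (input). Livers came from C57BL/6 mice (C57BL/6J in the methods of the study) aged 8 weeks on normal chow. *Wtap* flox/flox mice carry a floxed *Wtap* gene with no Cre. *Wtap*-HKO mice carry the same floxed gene and *Alb*-Cre, which deletes it in hepatocytes, so the other cells of the liver keep *Wtap*. IP and input were sequenced from 2 RNA samples of each genotype, each pooled from several mice. The deposited lists combine the libraries of a genotype, so no value below has an SD or a test, no difference could be weighed against how far replicates spread, and the depth of the libraries is unknown. Fold enrichment is IP over input as the authors deposited it. It describes the pull-down of a stretch of mRNA and not the amount of the mRNA. The lists held 15635 peaks for *Wtap* flox/flox and 19185 for *Wtap*-HKO. A site found in one list can have missed the peak threshold in the other, and is not shown to lack m6A there.

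WTAP is the regulatory subunit of the m6A writer complex, in which METTL3 transfers the methyl group, and it holds that complex in nuclear speckles. m6A often lies near stop codons and in the 3′ part of mRNAs, while the antibody also binds m6Am, the related mark beside the cap at the 5′ end. In hepatocytes, fatty acids enter through transporters such as CD36, are esterified to triglyceride by GPAM and the DGAT enzymes, are stored in droplets coated by perilipins and enlarged by CIDE proteins, and are released by lipases such as ATGL, the product of *Pnpla2*.

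Of the 10 sites, 6 were shared by both genotypes, against 54.5% of all sites. The *Dgat2* site and a *Lipc* site were found only in *Wtap* flox/flox (2 of 10, against 14.3% of all sites). The *Cd36* site and a *Pnpla2* site were found only in *Wtap*-HKO (2 of 10, against 31.1%). Both genotypes had 8 peaks in 6 of the 10 genes, and these covered 2125 exonic nt in *Wtap* flox/flox against 1679 nt in *Wtap*-HKO. At the 6 shared sites the fold enrichment was at least 2-fold higher in *Wtap*-HKO at 1 site (*Dgat1*; background 15.1% of 11805 shared sites) and at least 2-fold lower at 1 site (*Plin5*; background 12.8%). The median log2 ratio of *Wtap*-HKO over *Wtap* flox/flox was 0.20 over these 6 sites and 0.0037 over all shared sites. The list of differential peaks held 3 of the 10 sites, in *Plin5*, *Cideb* and *Pnpla2*, against 18.3% of all sites. With 10 sites these counts stood near the background, and the sites themselves differed from gene to gene.

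**Figure D1:**
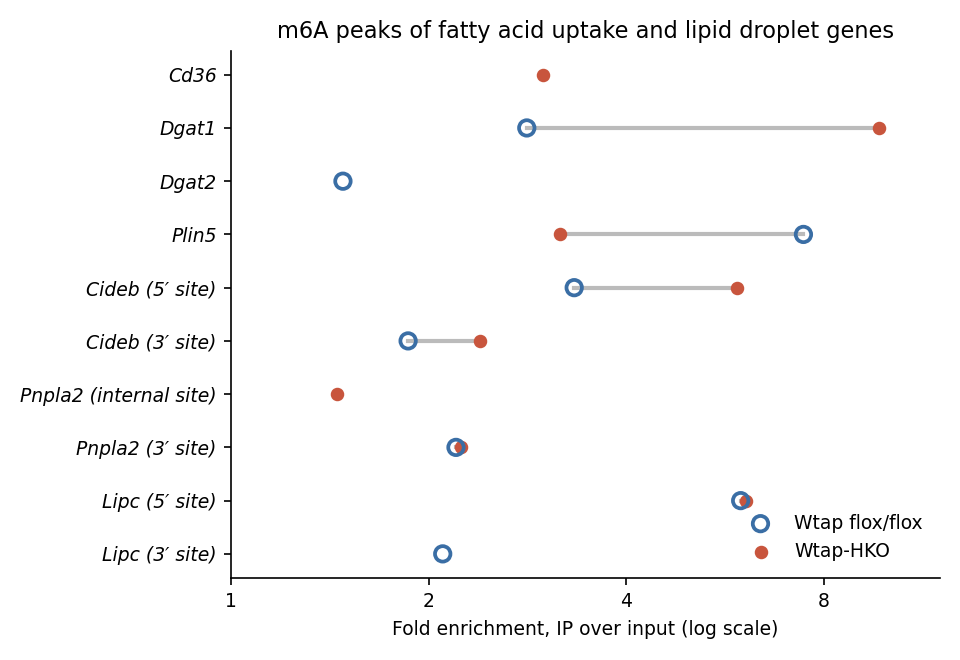
Fold enrichment (IP over input, log scale) at each site of the 7 genes with a peak, with open circles for *Wtap* flox/flox and filled circles for *Wtap*-HKO; a missing circle means no peak in that list. The widest gaps are at *Dgat1* (2.82 and 9.71) and *Plin5* (7.44 and 3.17), while the circles of *Pnpla2* and *Lipc* at their shared sites lie on each other.

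The sequence at the 5′ end of *Cideb* is shown because it is the only place where a peak of these genes and an available RefSeq start window overlap. No start window was available for *Dgat1* or *Dgat2*. The peak covered 84 nt of that window in both genotypes, 34 nt before the RefSeq start of the gene and 50 nt from it onward. Within these 84 nt the m6A consensus, written as A, G or T, then A or G, then AC, then A, C or T, occurred 2 times on the strand of *Cideb* and 3 times on the opposite strand. The capitals mark the 2 matches on the gene's strand, in stretches of 30 bases on the minus strand of GRCm38.p6 (RefSeq), at chr14:55758424-55758453 and chr14:55758394-55758423.
Cideb up to the start: tgtccctcttacTGACCaggcaagggggtc
Cideb from the next base: agagtccacgctTGACTcacctctcacttt
The last base of the first stretch is the RefSeq start. The first match begins 17 nt before the RefSeq start and the second 13 nt after it. A match is common in such a stretch. It was present in 71.3% of 32851 start windows of the table over the same 84 nt (73.6% on the opposite strand). The GGAC core of the motif was absent from the *Cideb* stretch on its own strand and present 2 times on the opposite one, against 27.9% and 26.9% of windows holding it. Which adenosine was methylated cannot be read from peaks of this width.

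For fatty acid uptake, *Cd36* (ENSMUSG00000002944) had 1 peak, in *Wtap*-HKO only. CD36 is the scavenger receptor that takes up long-chain fatty acids, and liver macrophages and endothelial cells carry it as well as hepatocytes. The peak spanned chr5:17835645-17849763 on the minus strand in 2 exonic blocks of 107 and 73 nt. The 73-nt block lay 179 nt downstream of an annotated RefSeq start, at position 17835896. The 107-nt block, at 17849657 to 17849763, lay upstream of that start. Its fold enrichment was 2.98 (log10 of the false discovery rate -13.3), which placed it at percentile 15.9 of the *Wtap*-HKO list. It was not on the list of differential peaks. In bulk liver, fewer cells of a type and less RNA per cell cannot be told apart, and markers of other cells also differed between the lists. Of 7 Kupffer cell and leukocyte markers, 3 had a peak in *Wtap* flox/flox against 6 in *Wtap*-HKO, and 6 of their 12 sites were found only in *Wtap*-HKO, against 31.1% of all sites. Of 5 endothelial markers, 4 had a peak in each genotype, and 5 of their 10 sites were found only in *Wtap*-HKO. Neither of these lists had a site found only in *Wtap* flox/flox, against 14.3% of all sites. The stellate list had peaks in 2 and 3 of 5 genes, with 2 of 5 sites only in *Wtap*-HKO, and of 4 adipocyte markers only *Adipoq* had one, in *Wtap*-HKO. Their part in the *Cd36* result was not tested. The study reports higher *Cd36* mRNA and protein in *Wtap*-HKO livers, and the part of that difference in the peak was not tested here either. From its m6ARIP-seq, the study found no significant *Cd36* peak in *Wtap* flox/flox livers and no differential one. It holds regulation through m6A of the *Cd36* transcript to be unlikely. From other assays it describes WTAP as a repressor of *Cd36* transcription, with HDAC1 involved. Of the hepatocyte markers, 5 of 8 had a peak in *Wtap* flox/flox livers and 6 of 8 in *Wtap*-HKO livers, *Alb* and *Apob* among them. *Cps1* and *Serpina1a* had no peak in either. Of the 17 hepatocyte marker sites, 3 were found only in *Wtap* flox/flox and 2 only in *Wtap*-HKO. Since peaks do not measure the amount of mRNA, these counts do not check the liver label.

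For triglyceride synthesis, *Dgat1* had the largest difference of the set. DGAT1 and DGAT2 catalyse the last step of triglyceride synthesis, the former on fatty acids taken up from outside and the latter largely on newly made ones. *Dgat1* (ENSMUSG00000022555, minus strand of chromosome 15, RefSeq span 76502012 to 76512021) had a shared site at chr15:76511564-76511953, which ends 68 nt from the 5′ end of the gene. Its fold enrichment was 2.82 in *Wtap* flox/flox against 9.71 in *Wtap*-HKO, 3.44-fold higher (log2 ratio 1.78). The peak was also wider in *Wtap*-HKO, 390 against 181 exonic nt, and contained all 181 nt of the *Wtap* flox/flox peak. The site was nonetheless not on the list of differential peaks.

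The 1 peak of *Dgat2* (ENSMUSG00000030747) lay toward the other end of its gene, and only in *Wtap* flox/flox. It covered 91 nt at chr7:99154526-99154616 on the minus strand, 863 nt from the 3′ end of the RefSeq span. Its fold enrichment of 1.48 was low (percentile 0.54 of the list), with a log10 false discovery rate of -60.7. The 2 enzymes of the same reaction thus gave a stronger peak at the 5′ end of *Dgat1* in *Wtap*-HKO and a weak peak near the 3′ end of *Dgat2* that was found in *Wtap* flox/flox alone. *Gpam*, which encodes the mitochondrial acyltransferase of the first step, had no peak.

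Among the coat proteins, *Plin5* had the lower enrichment in *Wtap*-HKO. Perilipin 5 coats droplets in oxidative tissues and tethers them to mitochondria, and it holds back lipolysis by ATGL. *Plin5* (ENSMUSG00000011305, minus strand, RefSeq span chr17:56111597-56117606) had 1 shared site at its 3′ end, chr17:56111601-56112346, that stopped 4 nt short of the end of the gene. Fold enrichment was 7.44 in *Wtap* flox/flox against 3.17 in *Wtap*-HKO, 2.35-fold lower (log2 ratio -1.23). The peak narrowed from 746 to 299 exonic nt, all within the *Wtap* flox/flox peak, so that 447 nt were left outside it. The list of differential peaks held 2 rows here, at 56111601 to 56111780 (180 nt) and at 56111899 to 56112316 (418 nt). The first of them lies wholly in the stretch where *Wtap*-HKO had no peak, and the second covers the *Wtap*-HKO peak. The pooled fold enrichment of the authors for these rows was 1.68 and 4.99. *Plin2*, the main droplet coat of hepatocytes, had no peak.

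**Figure D2:**
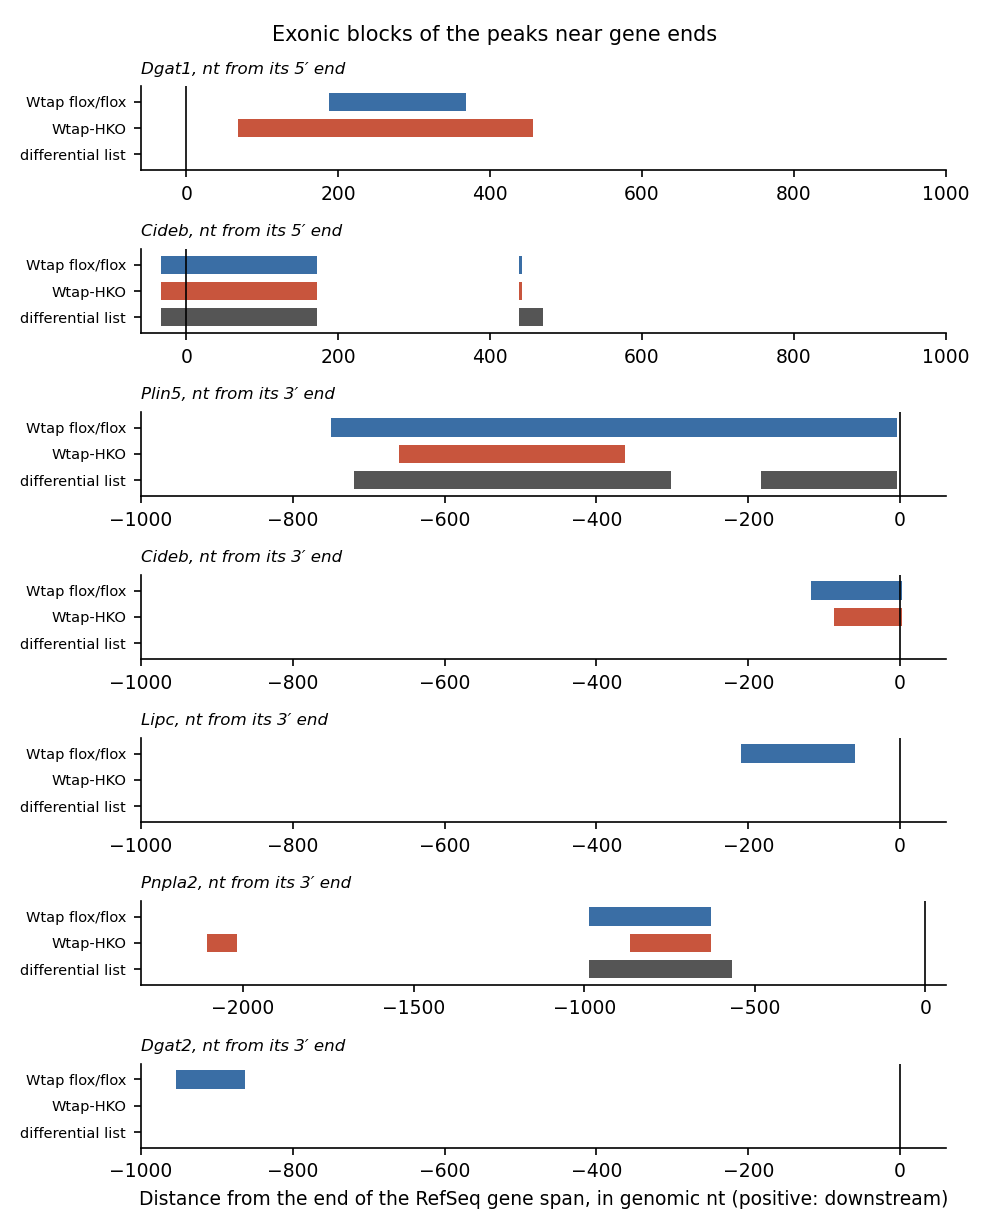
Exonic blocks of the peaks near an end of 6 genes, drawn as distance in nt from the 5′ or 3′ end of the RefSeq gene span (vertical line), with a lane each for *Wtap* flox/flox, *Wtap*-HKO and the list of differential peaks. The *Dgat1* bar is longer in *Wtap*-HKO (390 against 181 nt), the *Plin5* bar is shorter (299 against 746 nt), and the *Lipc* and *Dgat2* bars are present in *Wtap* flox/flox alone.

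Among the CIDE proteins, *Cideb* had higher enrichment at its 5′ end. CIDEB serves droplet fusion and the lipidation of VLDL in hepatocytes, and CIDEC is its relative in fat-storing cells and fatty liver. *Cideb* (ENSMUSG00000022219, minus strand, RefSeq span chr14:55754052-55758424) had 2 sites, both shared. The site at the 5′ end, chr14:55757985-55758458, holds the sequences printed above and covered the same 209 exonic nt in both genotypes. Fold enrichment there was 3.33 in *Wtap* flox/flox against 5.89 in *Wtap*-HKO, 1.77-fold higher (log2 ratio 0.82), under the 2-fold threshold. The list of differential peaks held it as 1 row, with a pooled fold enrichment of 4.36. The RefSeq span of *Ltb4r2* also covers this site.

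The site at the 3′ end of *Cideb*, chr14:55754050-55754169, had lower values. Fold enrichment was 1.86 in *Wtap* flox/flox over 120 nt and 2.39 in *Wtap*-HKO over 90 nt (log2 ratio 0.36), and the site was not on the list of differential peaks. A peak of *Nop9* on the opposite strand covered every base of the *Cideb* peak in each genotype, and its own fold enrichment was 4.83 in *Wtap* flox/flox against 6.11 in *Wtap*-HKO. Since strand-specific counting is not stated, reads of *Cideb* and *Nop9* cannot be told apart there. *Cidec* had no peak.

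For lipolysis, *Pnpla2* (ENSMUSG00000025509, plus strand, RefSeq span chr7:141455188-141460743) encodes ATGL, the lipase that starts the breakdown of stored triglyceride. Its main site, chr7:141459757-141460115, lay 628 nt from the 3′ end, where fold enrichment was 2.20 in *Wtap* flox/flox against 2.24 in *Wtap*-HKO (log2 ratio 0.03). Height was alike and width was not, since the peak covered 359 nt in *Wtap* flox/flox against 240 nt in *Wtap*-HKO, and 119 nt on its 5′ side were not covered in *Wtap*-HKO. The list of differential peaks held this site, as a row of 419 nt with a pooled fold enrichment of 2.88. A weaker site further upstream, chr7:141458636-141458726, had a peak in *Wtap*-HKO only, of fold enrichment 1.45 over 91 nt (percentile 0.33 of the list, log10 false discovery rate -6.75).

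*Lipc* (ENSMUSG00000032207, minus strand, RefSeq span chr9:70798128-70952221) encodes hepatic lipase, which hepatocytes secrete and which hydrolyses lipids of circulating lipoproteins. Its 2 sites differed. At chr9:70934484-70934752, which begins 56 nt downstream of an internal RefSeq start at 70934808, fold enrichment was 5.97 in *Wtap* flox/flox against 6.09 in *Wtap*-HKO (log2 ratio 0.03), over 269 and 180 nt. At its 3′ end, chr9:70798188-70798337, a peak of fold enrichment 2.10 over 150 nt was found only in *Wtap* flox/flox. Neither site was on the list of differential peaks. The RefSeq span of *Gm32017* covers the first of them.

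The position of a site along its gene was not part of how the genes were chosen. Of the 10 sites, 2 lay within 200 nt of the 5′ end of the RefSeq span (*Dgat1* and *Cideb*). Both were shared and higher in *Wtap*-HKO. Sites near an internal RefSeq start are not counted here. The shared *Lipc* site 56 nt downstream of such a start had a log2 ratio of 0.03. The *Cd36* peak was found in *Wtap*-HKO only. It had a block 179 nt downstream of such a start, but its larger block lay upstream of that start. The peak is thus not simply a site at that start. Of all sites at a 5′ end, 1533 were shared, 84.4% of them were higher in *Wtap*-HKO, and their median log2 ratio was 0.82. In the last 10% of the span, 4 of the 10 sites were found. The *Plin5* site was lower in *Wtap*-HKO, the *Dgat2* and *Lipc* sites were found in *Wtap* flox/flox only, and the *Cideb* site that overlaps *Nop9* was higher. Of all shared sites in the last 10% of the span (4263), 59.7% were lower in *Wtap*-HKO, with a median log2 ratio of -0.20. Of all sites there that were not shared, 1302 were found only in *Wtap* flox/flox, like those of *Dgat2* and *Lipc*, and 1544 only in *Wtap*-HKO.

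**Figure D3:**
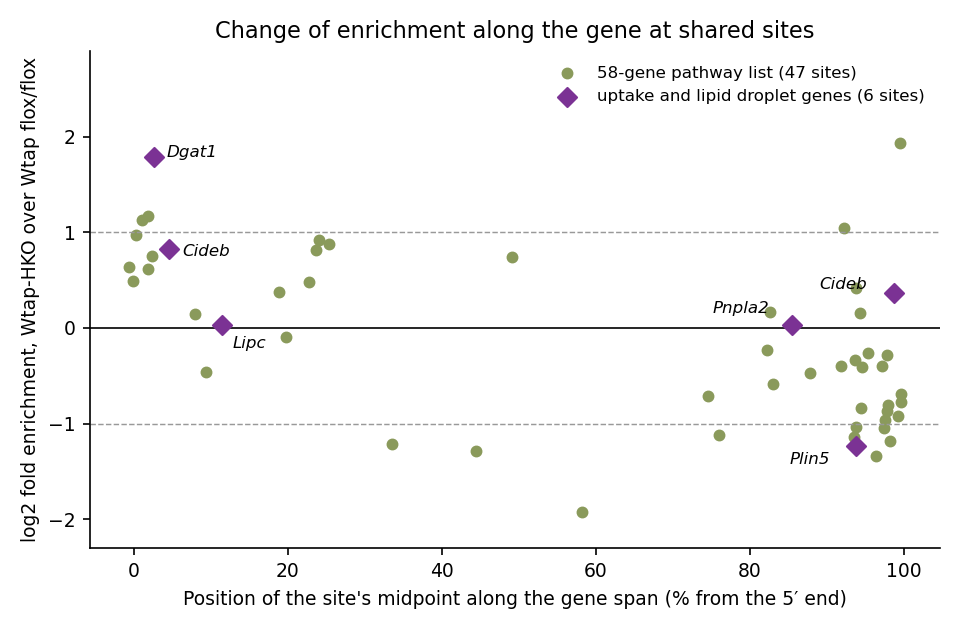
log2 ratio of fold enrichment, *Wtap*-HKO over *Wtap* flox/flox, of each shared site against the position of its midpoint along the gene span (percent from the 5′ end); diamonds are the 6 shared sites of the set, circles the 47 shared sites of the wider pathway list, and dashed lines mark a 2-fold difference. *Dgat1* and the 5′ site of *Cideb* lie above 0 near the 5′ end, and *Plin5* lies below -1 near the 3′ end among circles that are mostly below 0.

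The wider pathway was read from a list of 58 further genes of fatty acid uptake and binding, activation, triglyceride synthesis, droplet coat and growth, lipolysis and circulating lipases. Of these, 45 had a site, 75 sites in all. Of the 75 sites, 47 were shared, 12 (16%) were found only in *Wtap* flox/flox and 16 (21.3%) only in *Wtap*-HKO, against 14.3% and 31.1% of all sites. At shared sites, 4 were at least 2-fold higher and 9 at least 2-fold lower in *Wtap*-HKO (15.1% and 12.8% over all genes), and the median log2 ratio was -0.34, against 0.0037 over all shared sites. The list of differential peaks held 36 of the 75 sites (48%), against 18.3% of all sites and 12 of 17 sites of the hepatocyte markers. At 5′ ends, 13 of the 14 shared sites of the pathway list were higher in *Wtap*-HKO, against 84.4% of all shared sites at a 5′ end. In the last 10% of the span, 18 of the 22 shared sites were lower, against 59.7%. For the groups that follow, the backgrounds over all genes are 5909 shared sites higher and 5875 lower in *Wtap*-HKO of 11805, and 18.3% of sites listed.

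Among droplet coat and growth genes, 8 of 9 shared sites were lower in *Wtap*-HKO, 4 of them at least 2-fold (12.8% of all shared sites), and 9 of 14 sites were on the list of differential peaks. *Plin4*, a perilipin that lies beside *Plin5* on chromosome 17, had 3 shared sites. Their fold enrichment was 14.2 and 3.75, 9.98 and 4.10, and 10.9 and 4.69 in *Wtap* flox/flox and *Wtap*-HKO (log2 ratios -1.92, -1.28 and -1.22), and all 3 were on the list of differential peaks. *Fitm2*, which encodes an endoplasmic reticulum protein needed for droplet formation, had 4.95 and 2.28 at its shared site (-1.12), also listed. The 2 neighbouring coat genes *Plin4* and *Plin5* thus both had lower enrichment in *Wtap*-HKO at every site.

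In triglyceride synthesis, 8 of 11 shared sites were lower and 3 higher in *Wtap*-HKO. *Lpin2* and *Lpin3*, which encode phosphatidate phosphatases, had fold enrichments of 5.81 and 2.29 (-1.34, listed) and of 7.67 and 3.39 (-1.18, not listed). *Agpat2*, an acyltransferase gene, had 3.20 and 1.45 (-1.14, listed), over 691 nt in *Wtap* flox/flox against 121 nt in *Wtap*-HKO. The related *Agpat4* had 11 and 42 (1.93), and *Agpat1* had 4.41 and 9.13 (1.05) at one site and 5.16 and 4.85 (-0.09) at another, none of them listed. *Agpat4* and the higher *Agpat1* site were in the last 10% of the span, so members of one enzyme family stood on both sides.

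In lipolysis, 7 of 10 shared sites were lower in *Wtap*-HKO and 6 of 12 sites were on the list of differential peaks. *Lipa*, the gene of lysosomal acid lipase, had 3.86 and 1.88 (-1.04, listed). *Aadac*, a lipase of the endoplasmic reticulum, had 4.74 and 2.30 at its 3′ end (-1.04) and 3.02 and 5.71 at its 5′ end (0.92), both listed. Opposite signs at the 2 ends of 1 gene were also seen in *Angptl4*, whose product inhibits lipoprotein lipase. It had 6.45 and 5.39 at the 3′ end (-0.26, listed) and 2.34 and 5.27 at the 5′ end (1.17, not listed).

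In uptake and binding, 6 of 7 shared sites were higher in *Wtap*-HKO, with a median log2 ratio of 0.75, and 8 of 14 sites were listed. Of these 7 sites, 5 lay at a 5′ end, all of them higher, where 84.4% of all shared sites were higher. Of these 5, 1 spans nearly the whole gene and counts at the 3′ end as well. *Slc27a5*, which encodes a fatty acid transport protein and bile acid CoA ligase of hepatocytes, had 2.11 and 4.61 at its 5′ end (1.13, listed). *Got2*, the mitochondrial aspartate aminotransferase also described as a fatty acid binding protein of the plasma membrane, had 1.66 and 3.26 at its 5′ end (0.97, listed) and a site at its 3′ end found only in *Wtap* flox/flox (1.82, listed). The *Got2* pair resembles *Lipc* in that the 3′ site was found in *Wtap* flox/flox alone, though the *Lipc* site was not on the list of differential peaks. Of 5 activation genes, 3 had a site, and 2 of their 3 shared sites were lower in *Wtap*-HKO, both in the same gene. Of the circulating lipases and their regulators, 5 of 7 shared sites were higher.

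**Figure D4:**
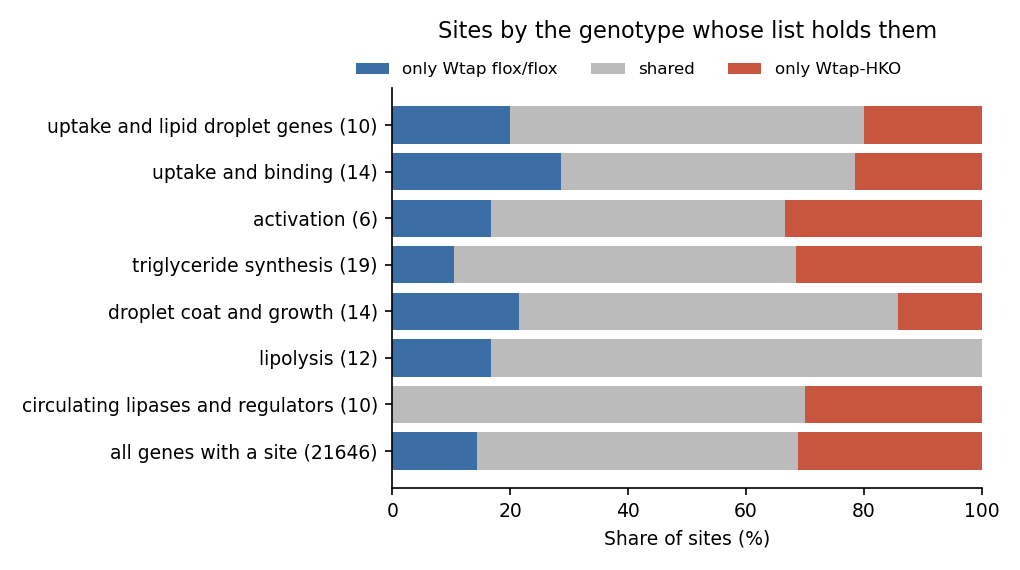
Share of sites (percent) found only in *Wtap* flox/flox, in both genotypes or only in *Wtap*-HKO, for the uptake and lipid droplet genes, the 6 groups of the pathway list (without those 10 genes) and all genes, with the number of sites in brackets. So drawn, the lipolysis group has no site found only in *Wtap*-HKO, though *Pnpla2* has 1, and the circulating lipases and regulators have none found only in *Wtap* flox/flox, though *Lipc* has 1.

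The targeted gene, *Wtap*, had 3 shared sites, with fold enrichments of 8.06 and 4.47, of 20.7 and 20.5, and of 8.78 and 20.6 in *Wtap* flox/flox and *Wtap*-HKO. Since fold enrichment is relative to the input, these values do not measure *Wtap* mRNA and do not check the deletion.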

How the data were processed

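m6ARIP-seq of mouse liver comprised 8 libraries, 2 IP and 2 input for each of 2 genotypes, grouped by the genotype in the labels. The authors aligned 150 bp reads to GRCm38 (BWA 0.7.12 and fastp 0.19.11 are in the submitters' processing notes) and called peaks with exomePeak. The fold enrichment deposited for each peak divides IP by input on a linear scale, and the false discovery rate is a log10 score that they deposited from the peak caller. Replicates are combined in every list by a rule not given in the sources used here, so no depth, SD or test was possible. The list of differential peaks also holds p-values, false discovery rates and log2 fold changes of the authors' own comparison, which were not used. A site counted as listed where a row of that list shared an exonic base with it.

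In pandas 2.3.3 (Python 3.11.15, numpy 2.4.6), peaks of 1 gene and strand were joined into a site where they shared at least 1 exonic base. The log2 ratio compares fold enrichments weighted by exonic length, with an absolute value of 1 as threshold. Distances were taken to the ends of RefSeq gene spans (GRCm38.p6, introns included). Start windows come from RefSeq. The steps recovered all 3000 simulated sites. Each of these had at most 1 peak per list, of 1 block, so spliced peaks and sites joined from several peaks were not tried.

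The genes and lists were chosen with earlier results of these data known. Named are all 10 genes, *Wtap*, and at most 12 genes of the pathway list, in order of absolute log2 ratio, among those listed or past the threshold. The alternatives were stricter peaks, other overlaps, scalings, thresholds and end distances. Figures were drawn with matplotlib.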

Additional observations from a re-analysis of the deposited data

How the results depend on the processing

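Leaving out a replicate was not run, because the lists combine the replicates. No paired analysis was possible because the lists hold no values per library. Of 73 recounts of sites under the alternatives, 68 stayed within 1.5 times the reported count. Many of these had little room to move. A false discovery rate under 0.01, the other overlap rules, the highest fold enrichment of a site and centring left every count as reported. The 68 are therefore not a measure of robustness. With a fold enrichment of at least 2, 1 site of the set was found only in *Wtap* flox/flox instead of 2 (*Dgat2* was left out by construction). Shared sites fell from 6 to 5, since the *Wtap* flox/flox peak at the 3′ site of *Cideb* (1.86) was left out too. That site then counted as *Wtap*-HKO only. The internal *Pnpla2* site (1.45) was left out as well, so the count of *Wtap*-HKO-only sites stayed at 2. With an absolute log2 ratio of 0.5 as threshold, 2 sites of the set were called higher instead of 1, and in the pathway list 12 were called higher and 18 lower, in place of 4 and 9. With the differential list matched by gene name, 5 sites of the set were listed instead of 3, since the other sites of *Cideb* and *Pnpla2* then count. In percentile ranks, taken within lists of 15635 and 19185 peaks, the shared *Lipc* and *Pnpla2* sites had differences of -2.995 and -1.16 points, the opposite sign to their log2 ratios of 0.03, and the cause was not tested. Ratios of single sites were rerun for the shared sites of the set only, not for the pathway list. The 2 past the threshold, *Dgat1* and *Plin5*, kept their sign, with rank differences of 54.1 and -45.8 points. Both had 1 peak per list, so the settings for fold enrichment could not alter their ratios, and centring moved them by 0.0037. Only the rank setting could have changed a sign. Without counts per library, the smallest detectable enrichment is unknown.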
